A study of Homo sapiens with 12 samples.

Results

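The genes described here are the cyclins, cyclin-dependent kinases and kinase inhibitors that set the passage of a cell from G1 into S phase: the D-type cyclins CCND1, CCND2 and CCND3, the E-type cyclins CCNE1 and CCNE2, the kinases CDK4, CDK6 and CDK2, and the CIP/KIP inhibitors CDKN1B (p27) and CDKN1C (p57). They were taken from the count matrix by exact match of the gene symbol, which gave 10 of 58307 gene rows, with 1 row for each gene. The study used 2 established lines of human melanoma, A375 and SK-MEL-28, and exposed each to etoposide alone or to etoposide together with rapamycin. Etoposide is a topoisomerase II poison that breaks DNA, and rapamycin inhibits the mTOR kinase complex 1 and was used in the study as an inducer of autophagy. Each of the 4 groups held 3 polyA-enriched RNA libraries, 12 in all. All cells, the controls included, had received etoposide, no untreated or rapamycin-only library was analysed here, and the doses and times behind the RNA libraries are not given in the sources used here.

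D-type cyclins are induced by growth signals and bind CDK4 or CDK6. These complexes phosphorylate the retinoblastoma protein RB1 and so release E2F transcription factors, which switch on the genes of S phase entry, the E-type cyclins among them. E-type cyclins then activate CDK2. CDKN1B and CDKN1C bind and restrain the cyclin and CDK2 complexes, and CDKN1A (p21), their close relative, is a main target of p53 after DNA damage. In melanoma the pathway is best known for loss of CDKN2A, whose product p16 inhibits CDK4 and CDK6, and for gain of CCND1 or CDK4.

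The genes lie apart in the genome (GRCh38, GENCODE release 44). CCND1 is on chromosome 11 at chr11:69641156-69654474, plus strand, and CDKN1C is on the other arm at chr11:2883213-2885775, minus strand. Chromosome 12 carries CCND2 (chr12:4269771-4305353, plus), CDKN1B (chr12:12685498-12722369, plus), CDK2 (chr12:55966781-55972789, plus) and CDK4 (chr12:57747727-57756013, minus). CCND3 is at chr6:41934934-42050357 on the minus strand, CDK6 at chr7:92604921-92836573 on the minus strand and CCNE1 at chr19:29811991-29824312 on the plus strand. All values below are counts summed per gene and are not split by transcript.

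The 250 bases upstream of the annotated start were at hand in RefSeq (GRCh38.p14) for 5 of the 10 genes, CCND3, CCNE1, CDK4, CDK6 and CDKN1B. Shown are the windows of CDKN1B, CDK6 and CDK4: in A375 cells the first gene rose with rapamycin, the second fell and the third passed no test. Each reads 5′ to 3′ on the strand of the gene, and capitals mark every match on either strand to the 6 motifs searched.
CDKN1B promoter, chr12:12717118-12717367, plus strand: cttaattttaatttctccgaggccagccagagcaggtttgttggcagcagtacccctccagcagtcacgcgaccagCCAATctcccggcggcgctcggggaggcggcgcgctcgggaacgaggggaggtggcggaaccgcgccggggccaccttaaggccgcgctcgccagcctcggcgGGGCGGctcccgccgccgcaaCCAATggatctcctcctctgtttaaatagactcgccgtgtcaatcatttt
CDK6 promoter, chr7:92836574-92836823, minus strand: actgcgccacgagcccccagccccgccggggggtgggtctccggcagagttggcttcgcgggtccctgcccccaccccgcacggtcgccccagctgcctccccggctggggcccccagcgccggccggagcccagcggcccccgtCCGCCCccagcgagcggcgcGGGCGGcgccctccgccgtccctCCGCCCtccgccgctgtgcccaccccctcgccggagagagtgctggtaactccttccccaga
CDK4 promoter, chr12:57752311-57752560, minus strand: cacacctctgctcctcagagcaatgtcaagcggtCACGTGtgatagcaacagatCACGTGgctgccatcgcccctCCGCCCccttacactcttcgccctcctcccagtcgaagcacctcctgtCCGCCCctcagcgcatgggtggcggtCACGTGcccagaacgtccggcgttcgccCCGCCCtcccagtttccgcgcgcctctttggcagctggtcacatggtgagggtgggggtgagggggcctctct

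The motifs searched were an E2F site (TTTGGCGC, TTTCCCGC, TTTGCCGC or TTTCGCGC), the E-box CACGTG that MYC and MITF can bind, the GC box GGGCGG, the FOXO site GTAAACA, the CRE half-site TGACG and CCAAT, and none of their letters overlapped in these 3 windows. The CDK4 window held 3 E-boxes, at 216, 196 and 101 bases before the start. Of 35116 windows of the same length, 6.34% held an E-box and 28 windows, 0.0797%, held 3 or more. CDK4 and CDK6 each had 3 GC boxes and CDKN1B had 1, a motif present in 42.6% of all windows. CDKN1B had 2 CCAAT boxes, which 32% of windows carried at least once. No window of these 5 genes held the E2F letters or the FOXO letters, found in 2.79% and 2.98% of all windows, and only the second CDK6 start had a CRE half-site, which 21.2% of windows carried. The CDK4 and CDKN1B windows lie inside the span that GENCODE gives the gene, whose earliest transcripts begin further upstream. These are matches of letters and not evidence of binding.

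Library totals ran from 28189501 to 32499337 counts. Levels are given as CPM (a count scaled to a fixed library total) after TMM scaling of the 12 libraries. A change was called at an adjusted p below 0.05 in the quasi-likelihood test of edgeR, adjusted by Benjamini and Hochberg's method over every gene tested, and each adjusted p below is from edgeR. Errors of a log2 fold change are standard errors, and intervals are 95% intervals. The libraries were checked against 8 melanocyte markers. SOX10 (166 to 581 CPM), S100B (56.9 to 106 CPM) and MITF (12.1 to 29.7 CPM) were present in every library. The pigment genes MLANA, PMEL, TYR, TYRP1 and DCT never exceeded 2.99 CPM in either line, and TYR had 0 counts in all libraries with rapamycin. The name of each cell line was taken from the sample titles, and its identity was not checked further from the counts. The summed level of the 8 markers was 477 to 594 CPM with etoposide and 399 to 658 CPM with rapamycin in A375, and 426 to 549 CPM and 294 to 526 CPM in SK-MEL-28. SOX10 made up most of that sum, and it varied widely within a group. With rapamycin its SD was 134 CPM around a mean of 475 in A375 and 127 around 291 in SK-MEL-28. Overlaps with other annotated genes were looked up for the G1 genes described here and not for the markers. Of the 7 melanocyte markers tested, 3 fell with rapamycin in A375, where 13.8% of all genes tested fell. These were S100B (log2 fold change -0.58, adjusted p = 4.13e-05), MITF (-0.51, adjusted p = 0.00248) and DCT (-1.70, adjusted p = 0.0106, at under 1 CPM). The median of the 7 was -0.48. For SK-MEL-28, 1 of the 7 fell, MITF (-0.50, adjusted p = 0.0032), beside 10.1% of all genes tested, with a median of -0.23. The summed level of 7 markers of keratinocytes, leukocytes, endothelium and fibroblasts was lower with rapamycin, at 19.4 to 22.2 CPM against 26.8 to 31.0 CPM in A375 and 22.3 to 26.4 CPM against 34.5 to 40.3 CPM in SK-MEL-28. Of these 7, 4 were tested in A375 and 6 in SK-MEL-28. LUM and DCN fell in A375, LUM and PECAM1 fell in SK-MEL-28, beside the same falling shares of all genes, and none was called higher. DCN was not called without rapamycin replicate 2 or etoposide replicate 3, and PECAM1 without any 1 of the 6 libraries. KRT14 was present at 4.84 to 9.98 CPM, and LUM in SK-MEL-28 at 14.9 to 28.9 CPM. KRT5, PTPRC and CDH5 stayed below 1 CPM. The part of these markers in the results below was not tested.

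**Figure D1:**
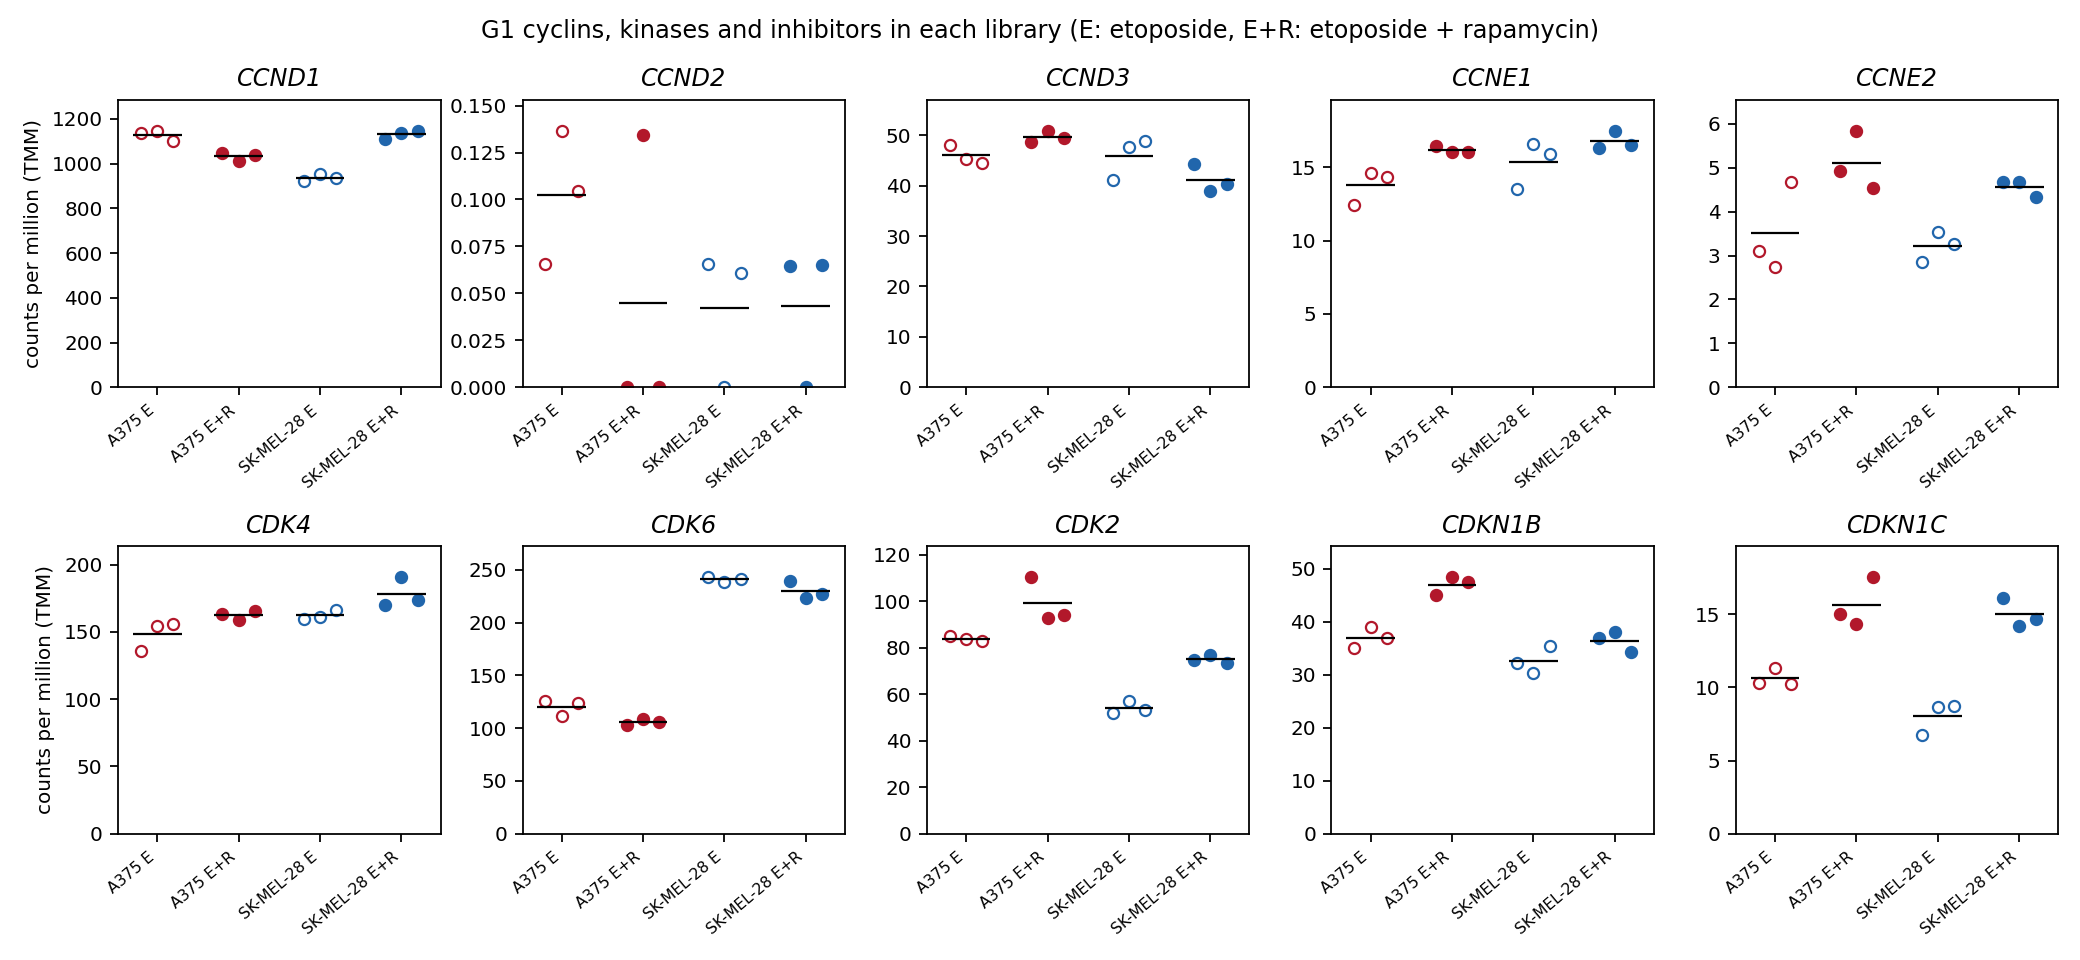
Level of each gene in each of the 12 libraries, in CPM after TMM scaling (vertical axis, from 0). Open circles are etoposide (E), filled circles etoposide + rapamycin (E+R), red A375 and blue SK-MEL-28, and lines are group means. CCND1 was lower with rapamycin in A375 and higher in SK-MEL-28, CDKN1C was higher with rapamycin in both, and CDK6 differed mainly between the lines.

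With rapamycin, A375 cells had more CDKN1C, CDKN1B and CDK2 mRNA and slightly less CDK6 and CCND1 mRNA, while SK-MEL-28 cells had more CDKN1C, CDK2, CCNE2 and CCND1 mRNA. Of the 9 genes abundant enough to test, 3 rose and 2 fell in A375, where 14.3% of all 18844 genes tested rose, 13.8% fell and 28.1% were called. The A375 count of 5 was 2 without rapamycin replicate 1 and 3 without rapamycin replicate 3. In SK-MEL-28, 4 rose and 0 fell, against 8.83% rising, 10.1% falling and 19% called among 18897 genes. Of these, the CCNE2 call was lost under 11 of 14 alternatives, each left-out library among them. The changes were small. None of the A375 genes and 1 of the SK-MEL-28 genes, CDKN1C, passed both the test and a 1.5-fold change, as did 5.89% and 4.99% of all genes. The 9 genes had a median log2 fold change of 0.23 (A375) and 0.15 (SK-MEL-28), beside -0.005 and 0.005 for all genes tested. The libraries of the 2 treatments did not overlap for 8 of 9 genes in A375 and 5 of 9 in SK-MEL-28, where the background was 42.5% and 35.9% of genes. In bulk RNA, fewer cells in a given phase and less RNA per cell cannot be told apart.

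CCND1, the D-type cyclin that growth signals induce through the MAPK pathway, was the most abundant of the genes and the one whose response differed between the lines. In A375 its level was 1135, 1145 and 1101 CPM with etoposide and 1046, 1014 and 1039 CPM with rapamycin. The SK-MEL-28 libraries held 921, 955 and 935 CPM with etoposide and 1108, 1137 and 1148 CPM with rapamycin. Every rapamycin library was thus below every etoposide library in A375 and above every one in SK-MEL-28, with no overlap in either line. This fall in A375 came to a log2 fold change of -0.13 ± 0.039 (adjusted p = 0.0246), and the rise in SK-MEL-28 to 0.27 ± 0.039 (adjusted p = 0.000387). The fall in A375 was lost when any 1 of the 3 rapamycin libraries or etoposide replicate 2 was left out (adjusted p 0.0519 to 0.114), whereas its size stayed between -0.17 and -0.12 over the alternatives. The difference between the responses, tested directly as an interaction over the 12 libraries, was 0.41 ± 0.048 on the log2 scale (interval 0.30 to 0.51, adjusted p = 0.000137). CCND1 was the only one of the 9 genes called in that test, and 5.62% of the 20101 genes tested were called, 2.66% with a higher and 2.97% with a lower response in SK-MEL-28. It was called under all 19 alternatives that kept the p threshold alone, with adjusted p up to 0.00278. In the annotation LTO1 overlaps CCND1 by 1399 bases on the opposite strand, and the counts of LTO1 were not read here.

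CCND3, another D-type cyclin, was far less abundant, and its changes, opposite in sign to those of CCND1, did not pass the test. Its values were 48.2, 45.4 and 44.5 CPM with etoposide and 48.7, 50.9 and 49.5 CPM with rapamycin in A375. In SK-MEL-28 they were 41.2, 47.6 and 48.8 CPM with etoposide and 44.3, 39.0 and 40.4 CPM with rapamycin. The 2 treatments were separate in A375, by a narrow margin, and overlapped in SK-MEL-28. The log2 fold change was 0.11 (interval -0.01 to 0.23, adjusted p = 0.177) in A375 and -0.16 (interval -0.32 to 0.01, adjusted p = 0.176) in SK-MEL-28, and the difference of -0.26 (interval -0.46 to -0.06) had an adjusted p of 0.129. Without SK-MEL-28 etoposide replicate 1, the lowest of its group, both the SK-MEL-28 value (-0.23, adjusted p = 0.0462) and the difference (-0.33, adjusted p = 0.0332) passed the test.

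The ratio of CCND1 to CCND3, taken within each library per kilobase of transcript and so free of the scaling between libraries, differed with rapamycin in opposite directions. It was 11.7 (11.3 to 12.1 over the 3 libraries) with etoposide and 9.94 (9.52 to 10.3) with rapamycin in A375, and 9.79 (9.16 to 10.7) and 13.1 (12.0 to 14.0) in SK-MEL-28. The groups did not overlap in either line, and the two-sided exact permutation p was 0.1 in each, the smallest that 3 against 3 libraries allow. Ratios of 6 pairs were compared in the 2 lines, 12 comparisons in all, and after Benjamini-Hochberg adjustment over them none was below 0.12. The pairs were not part of the planned comparisons, so their ratios are descriptive. CCND2, the remaining D-type cyclin, was close to absent, with 4 counts at most in any library. It was too low to test, and no fold change is given.

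CCNE1, the E-type cyclin that is amplified in several carcinomas, was a little higher with rapamycin in each line without passing the test. A375 had 12.4, 14.6 and 14.3 CPM with etoposide and 16.4, 16.0 and 16.1 CPM with rapamycin, with no overlap. SK-MEL-28 had 13.5, 16.6 and 15.9 CPM and 16.3, 17.5 and 16.5 CPM, where 1 etoposide library lay within the rapamycin range. Its log2 fold change was 0.23 in A375 (interval 0.02 to 0.43, adjusted p = 0.0961). For SK-MEL-28 it was 0.12 (interval -0.09 to 0.34, adjusted p = 0.436).

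CCNE2, the other E-type cyclin (chr8:94879770-94896678, minus strand), was the lowest of the tested genes, at 80 to 174 counts per library. Its values were 3.11, 2.73 and 4.67 CPM with etoposide and 4.92, 5.85 and 4.54 CPM with rapamycin in A375, and 2.85, 3.54 and 3.27 CPM and 4.68, 4.68 and 4.33 CPM in SK-MEL-28. Etoposide replicate 3 overlapped the rapamycin libraries in A375, and no library overlapped in SK-MEL-28. The log2 fold change was 0.54 ± 0.21 in A375 (adjusted p = 0.0729), and without etoposide replicate 3 it was 0.80 with an adjusted p of 0.0128. The SK-MEL-28 value was 0.50 ± 0.16 with an adjusted p of 0.0455, a call lost under 11 of 14 alternatives, each left-out library among them (adjusted p up to 0.131). CCNE2 shares part of its span with INTS8, which had 1237 to 1971 counts and fell by 0.20 in A375 (adjusted p = 0.0139). In SK-MEL-28, INTS8 had a log2 fold change of -0.02. NDUFAF6 overlaps CCNE2 as well, had 286 to 443 counts and was called in neither line. The sources used here do not state whether counting used the strand.

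CDK2, the partner of the E-type cyclins, rose in both lines. In A375 it was 85.0, 83.7 and 82.7 CPM with etoposide and 110, 93.0 and 94.1 CPM with rapamycin. SK-MEL-28 libraries had 52.1, 57.0 and 53.4 CPM with etoposide and 75.0, 77.0 and 73.6 CPM with rapamycin. All rapamycin libraries lay above all etoposide libraries, with rapamycin replicate 1 of A375 standing apart from its group. CDK2 rose by a log2 value of 0.24 ± 0.063 in A375 (adjusted p = 0.0132) and 0.47 ± 0.053 in SK-MEL-28 (adjusted p = 4.99e-05). Without that A375 library the value was 0.16 with an adjusted p of 0.0592. The difference between the lines, 0.24 (interval 0.05 to 0.42), had an adjusted p of 0.123, and 0.0247 without that library. The ratio of CDK2 to CDK4 per kilobase was 0.470 (0.442 to 0.523) and 0.507 (0.473 to 0.564) in A375, which overlapped, and 0.278 (0.268 to 0.295) and 0.351 (0.336 to 0.367) in SK-MEL-28, where the rapamycin libraries lay above all others. PMEL, which overlaps CDK2 in the annotation, had 46 to 92 counts per library.

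CDK4, which pairs with the D-type cyclins, was the most abundant of the kinases per kilobase and had values of 135, 155 and 156 CPM with etoposide and 163, 159 and 166 CPM with rapamycin in A375. SK-MEL-28 libraries held 160, 161 and 166 CPM with etoposide and 170, 191 and 174 CPM with rapamycin. The treatments did not overlap in either line, but the log2 fold changes of 0.12 (interval 0.00 to 0.25, adjusted p = 0.124) and 0.13 (interval 0.01 to 0.25, adjusted p = 0.115) did not pass the test. Its neighbour TSPAN31, which overlaps it in the annotation, had 1942 to 2709 counts and log2 fold changes of -0.13 and 0.09, neither called. MARCHF9 overlaps CDK4 as well, and the counts of MARCHF9 were not read here.

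CDK6, the second partner of the D-type cyclins, fell in A375 from 126, 111 and 124 CPM with etoposide to 103, 108 and 106 CPM with rapamycin. Levels in SK-MEL-28 were 243, 238 and 242 CPM with etoposide and 240, 224 and 227 CPM with rapamycin, with overlap. The log2 fold change of CDK6 in A375 was -0.19 ± 0.053 (adjusted p = 0.0194), a call lost without rapamycin replicate 1, rapamycin replicate 3 or etoposide replicate 3 (adjusted p up to 0.0926). Its value in SK-MEL-28 was -0.07 (interval -0.18 to 0.04, adjusted p = 0.361), and the difference between the lines was 0.13 (interval -0.02 to 0.27, adjusted p = 0.33). The ratio of CDK4 to CDK6 per kilobase was 7.74 (6.75 to 8.70) with etoposide and 9.62 (9.18 to 9.90) with rapamycin in A375, and 4.21 (4.10 to 4.29) and 4.84 (4.44 to 5.33) in SK-MEL-28. It was higher in every rapamycin library of each line, at the smallest exact permutation p of 0.1.

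CDKN1B, the p27 inhibitor whose protein is degraded as cells enter S phase, rose in A375 from 35.0, 39.1 and 36.9 CPM with etoposide to 45.1, 48.5 and 47.5 CPM with rapamycin. SK-MEL-28 held 32.3, 30.4 and 35.4 CPM with etoposide and 36.9, 38.2 and 34.3 CPM with rapamycin. The groups were well apart in A375 and overlapped in SK-MEL-28. CDKN1B rose by a log2 value of 0.34 ± 0.063 in A375 (adjusted p = 0.00152), and its SK-MEL-28 value was 0.15 (interval -0.01 to 0.32, adjusted p = 0.193). The difference of -0.18 (interval -0.39 to 0.02) had an adjusted p of 0.316, so the lines were not shown to differ. GPR19, which overlaps CDKN1B in the annotation, had 18 to 46 counts per library.

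CDKN1C, the p57 inhibitor encoded in an imprinted region, showed the largest called change of the 10 genes in each line. In A375 it was 10.3, 11.3 and 10.2 CPM with etoposide and 15.0, 14.3 and 17.5 CPM with rapamycin. In SK-MEL-28 it was 6.77, 8.68 and 8.70 CPM with etoposide and 16.1, 14.2 and 14.7 CPM with rapamycin. The lowest rapamycin library was well above the highest etoposide library in each line. The log2 fold change was 0.55 ± 0.11 in A375 (1.47-fold, adjusted p = 0.00209) and 0.89 ± 0.12 in SK-MEL-28 (1.86-fold, adjusted p = 0.000215). Both calls held when any 1 library was left out. The difference was 0.35 (interval 0.01 to 0.69) with an adjusted p of 0.235. Relative to CDKN1B per kilobase, CDKN1C went from 0.391 (0.377 to 0.400) to 0.451 (0.402 to 0.502) in A375 and from 0.333 (0.285 to 0.389) to 0.560 (0.505 to 0.594) in SK-MEL-28, without overlap and at the smallest exact permutation p of 0.1. The size of this ratio depends on the transcript lengths taken, whereas a fixed length leaves the comparison of the treatments as it is. On the union of all annotated exons, CDKN1C with rapamycin stood above CDKN1B in each line. The levels were 6.31 against 5.08 CPM per kilobase in A375 and 6.05 against 3.94 in SK-MEL-28. With etoposide CDKN1C stood above in A375 (4.28 against 4) and below in SK-MEL-28 (3.25 against 3.53).

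**Figure D2:**
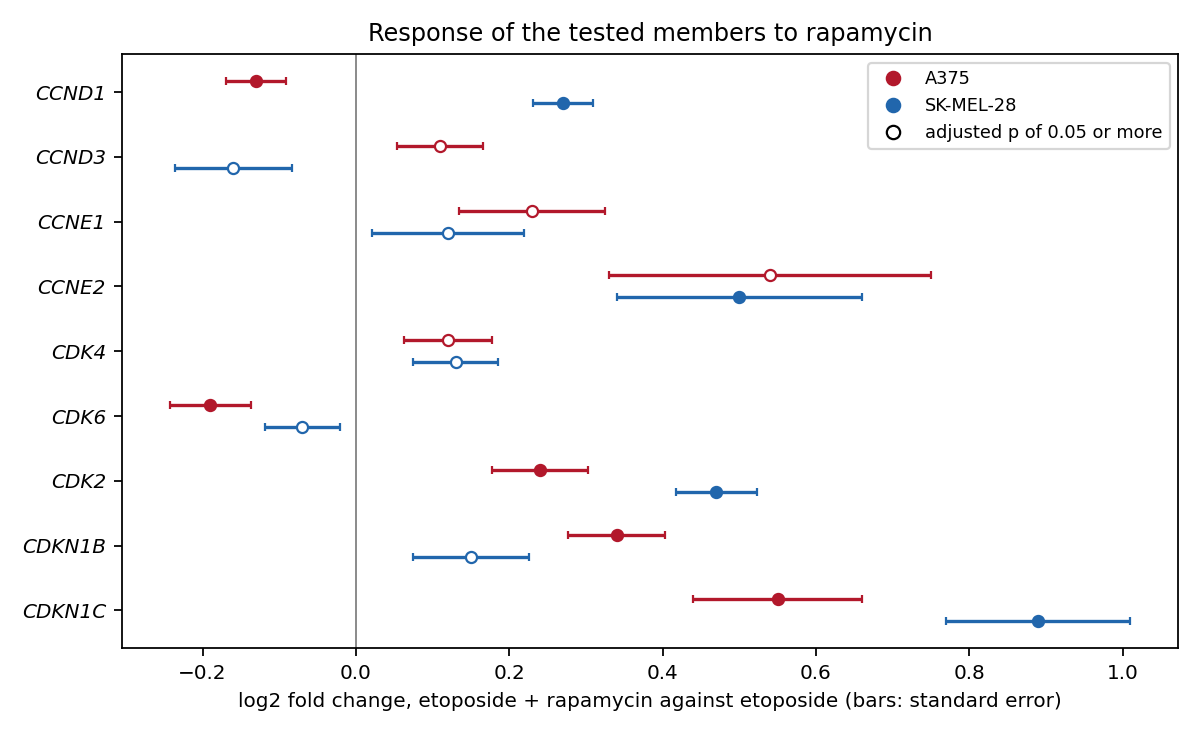
Log2 fold change of etoposide + rapamycin against etoposide (horizontal axis) for the 9 tested genes, red for A375 and blue for SK-MEL-28, with standard errors. Filled points have an adjusted p below 0.05. CCND1 lay at -0.13 in A375 and 0.27 in SK-MEL-28, and CDKN1C was farthest to the right in each line among the called genes, at 0.55 and 0.89.

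Compared per kilobase of the MANE Select transcript, the level of the genes spanned a wide range and kept much the same order in all groups. CCND1 led with 266 ± 5.42 CPM per kilobase (SD, n = 3) in A375 and 221 ± 4.08 in SK-MEL-28 under etoposide. CDK4 followed at 79.7 ± 6.16 and 87.0 ± 1.76, and CDK2 came next at 37.4 ± 0.508 and 24.2 ± 1.14. In A375 with etoposide CCND3 (22.7 ± 0.934), CDKN1B (15.3 ± 0.843) and CDK6 (10.3 ± 0.662) then followed without overlap, followed by CCNE1 (7.05 ± 0.600) and CDKN1C (5.99 ± 0.354), whose libraries overlapped. In SK-MEL-28 with etoposide the libraries of CDK2 and CCND3 (22.6 ± 2.01) overlapped, as did those of CCND3 and CDK6 (20.7 ± 0.226), and CDKN1B (13.6 ± 1.05), CCNE1 (7.85 ± 0.816) and CDKN1C (4.54 ± 0.624) followed without overlap. With rapamycin, CDKN1C reached the level of CCNE1 in both lines, at 8.82 ± 0.948 beside 8.27 ± 0.123 in A375 and 8.46 ± 0.565 beside 8.58 ± 0.331 in SK-MEL-28, with overlapping libraries. CCNE2 was ninth in every group, at 1.20 to 1.91 CPM per kilobase, and CCND2 was last. With the union of all annotated exons as the length, chosen after the data were seen, CDKN1B had 9.26 kb in place of 2.41 kb and stood below CCNE1 in all groups. On that length CCND3 had 7.99 CPM per kilobase in A375 with etoposide, below CDK6 at 9.81, and in SK-MEL-28 with etoposide CDK6 at 19.7 stood above CDK2 at 13.9. The order of CDK2, CCND3, CDK6, CDKN1B and CDKN1C thus depends on the transcript assumed, while CCND1 and CDK4 led and CCNE2 and CCND2 were last on both lengths.

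**Figure D3:**
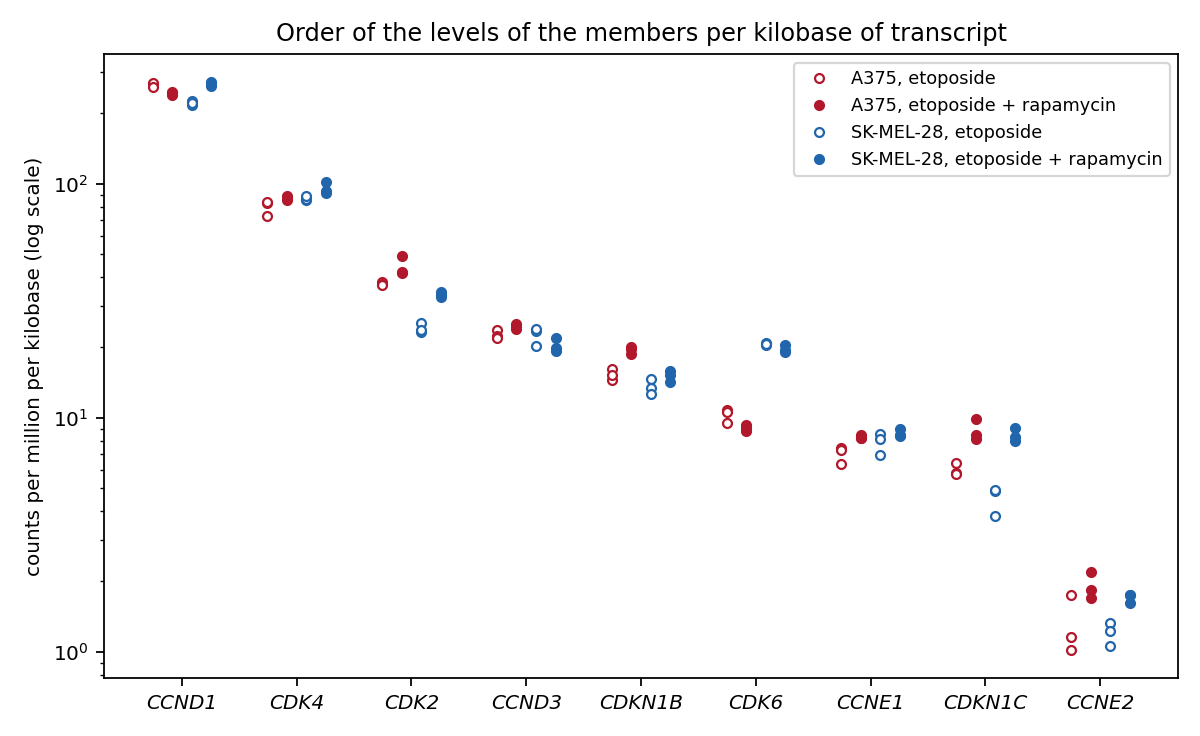
Level of the 9 tested genes per kilobase of the MANE Select transcript (vertical axis, log scale, CPM per kilobase) in each library, by cell line and treatment as in the key. CCND1 was highest at 221 to 267 CPM per kilobase in the group means and CCNE2 lowest at 1.20 to 1.91, and CDK6 was the gene whose level set the lines apart most.

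The lines were also compared under etoposide alone. SK-MEL-28 had more CDK6 and less CDK2, CCND1 and CDKN1C mRNA than A375. CDK6 was 2.00-fold higher in SK-MEL-28 (log2 1.00 ± 0.055, adjusted p = 2.19e-08), with no overlap between the libraries of the lines. The log2 difference, SK-MEL-28 against A375, was -0.64 ± 0.057 for CDK2 (adjusted p = 2.34e-06), -0.27 ± 0.042 for CCND1 (adjusted p = 0.000277) and -0.41 ± 0.13 for CDKN1C (adjusted p = 0.0263). The CDKN1C call was lost without A375 etoposide replicate 2 or SK-MEL-28 etoposide replicate 1 (adjusted p = 0.0915 and 0.0927). In all 1 of 9 genes was higher and 3 were lower, beside 15.2% and 16.5% of 19025 genes and 31.7% called. CDK6 and CDK2 passed a 1.5-fold change, as did 13% of genes, and the lines did not overlap for 5 of the 9 genes, beside 44.7% of genes. CDKN1B (-0.18, interval -0.35 to -0.02, adjusted p = 0.0914), CDK4 (0.12, interval -0.01 to 0.25) and CCNE1 (0.15, interval -0.09 to 0.38) did not pass. With 1 line of each kind, this comparison describes these cell lines and their cultures.

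**Figure D4:**
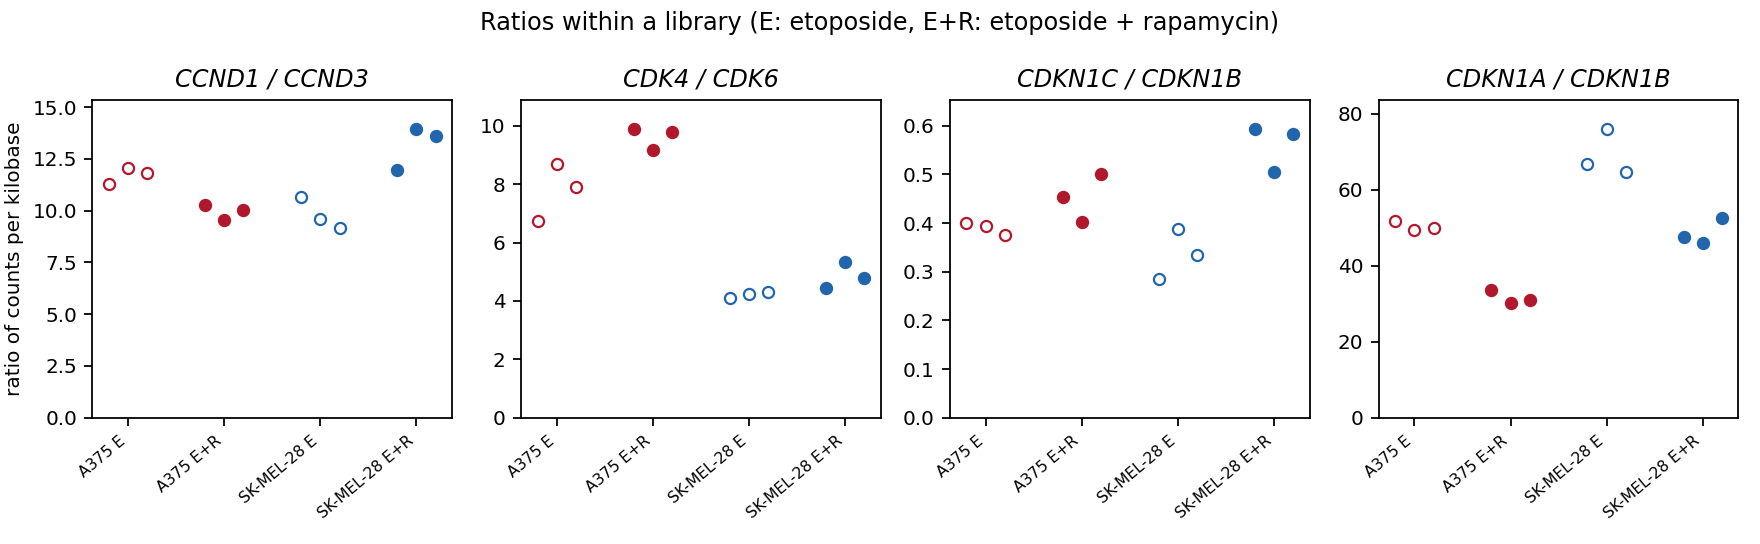
Ratio of one gene to another within each library, per kilobase of transcript (vertical axes, from 0), for etoposide (E, open) and etoposide + rapamycin (E+R, filled) in A375 (red) and SK-MEL-28 (blue). The CCND1 to CCND3 ratio went from 11.7 to 9.94 in A375 and from 9.79 to 13.1 in SK-MEL-28, and the CDKN1A to CDKN1B ratio was lower in every rapamycin library of each line.

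The other G1 inhibitors were read alongside. CDKN1A, the p53 target, was the most abundant of them, at 1593, 1697 and 1613 CPM with etoposide and 1330, 1288 and 1293 CPM with rapamycin in A375, and at 1892, 2026 and 2005 CPM and 1536, 1541 and 1575 CPM in SK-MEL-28. It fell in both lines without overlap, at log2 fold changes of -0.33 ± 0.040 (adjusted p = 9.04e-05) and -0.35 ± 0.038 (adjusted p = 3.84e-05). CDKN1A exceeded CDKN1B per kilobase 50.4 times with etoposide and 31.6 times with rapamycin in A375, and 68.9 and 48.5 times in SK-MEL-28. CDKN2C (p18), an inhibitor of CDK4 and CDK6, rose in A375 by 0.54 ± 0.084 (adjusted p = 0.000476) from 13.8 to 14.7 CPM to 20.4 to 21.2 CPM. In SK-MEL-28 its log2 fold change was 0.08 (interval -0.14 to 0.30), and the difference of -0.46 ± 0.13 had an adjusted p of 0.0412 that was lost under 12 of 19 alternatives. CDKN2A was low, at 1.36 to 4.03 CPM, with log2 fold changes of 0.27 and 0.57 that did not pass, and its row does not separate p16 from the p14ARF product of the same locus. CDKN2D, at 10.3 to 19.0 CPM, had 0.15 and -0.04, neither called. CDKN2B had 0 counts in all 12 libraries, which allows up to 0.106 CPM in the smallest library, counting error only.

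Among the 50 other genes of the G1 lists, 49 were tested. These lists were chosen with earlier results of these data known, so their counts are descriptive. In A375, 21 rose and 7 fell, where 14.3% and 13.8% of all genes tested did, and in SK-MEL-28, 10 rose and 4 fell, beside 8.83% and 10.1%. Their median log2 fold change was 0.13 and 0.07. Of the E2F target genes of S phase entry, 9 of 10 rose in A375 and 4 of 10 in SK-MEL-28, beside 14.3% and 8.83% of all genes, with median log2 fold changes of 0.54 and 0.21. MCM5, a subunit of the replicative helicase, rose by 0.94 and 0.60, CDT1, which loads that helicase, by 0.97 and 0.82, TYMS (thymidylate synthase) by 0.41 and 0.53, and RRM2 (ribonucleotide reductase) by 0.67 and 0.32. TK1 (thymidine kinase) and CCNA2 (cyclin A2) rose in A375, by 1.09 and 0.67, and had 0.18 and -0.10 in SK-MEL-28, not called. The difference for TK1, -0.90 ± 0.17, had an adjusted p of 0.00448. PCNA, the sliding clamp, was the target gene that was called in neither line (-0.10 and 0.06).

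Of the 10 E2F and DP factors, 5 rose and 1 fell in A375 and 4 rose and 0 fell in SK-MEL-28, beside the same shares. The activators E2F1 and E2F2 rose in both lines, E2F1 by 0.66 and 0.43 and E2F2 by 0.94 and 1.31, though E2F2 was low at 1.15 to 5.90 CPM, and the E2F1 call in SK-MEL-28 was lost when rapamycin replicate 2, etoposide replicate 1 or etoposide replicate 2 was left out (adjusted p up to 0.071). E2F4 and TFDP1, both abundant, rose by 0.16 and 0.13 in A375 and had 0.08 and 0.04 in SK-MEL-28, and the A375 calls were lost under 6 and 9 of 14 alternatives (adjusted p up to 0.107 and 0.187). E2F7, a repressor, had 0.08 in A375 and rose by 0.22 in SK-MEL-28, a call lost without rapamycin replicate 2 or 3 or etoposide replicate 1 or 2 (adjusted p up to 0.0959). TFDP2 rose in both lines, by 0.46 and 0.52, and E2F6 fell by 0.25 in A375, both named after their values were seen. The E2F6 call was lost without rapamycin replicate 2 or 3 or etoposide replicate 2 (adjusted p up to 0.0717). Of the RB proteins, RB1 fell by 0.34 ± 0.057 in A375 (adjusted p = 0.00081) and had -0.06 in SK-MEL-28, RBL1 (p107) rose by 0.44 in A375 and had 0.28 in SK-MEL-28, and RBL2 (p130) had 0.04 in A375 and rose by 0.18 in SK-MEL-28. The RBL1 call was lost without rapamycin replicate 2 (adjusted p = 0.0544), and the RBL2 call under 7 of 14 alternatives, each left-out library but etoposide replicate 1 among them (adjusted p up to 0.143). The RB1 difference between the lines was not called.

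In the next lists the background of all genes called was 28.1% (A375) and 19% (SK-MEL-28). Of the 4 genes of CDK activation, 1 rose and 1 fell in A375, and the SK-MEL-28 values, from -0.20 to 0.12, did not pass. The phosphatase gene CDC25A rose by 0.46 in A375 and had 0.12 in SK-MEL-28, and CCNH, the cyclin of the CDK-activating kinase, fell by 0.32 in A375 and had -0.20 in SK-MEL-28 (adjusted p = 0.0554), while CDK7 had -0.11 and 0.03. Of 12 genes of the ubiquitin ligases that degrade G1 cyclins and CDKN1B, 3 rose and 2 fell in A375 and 1 rose in SK-MEL-28. SKP1, the adaptor of the SCF ligases, fell by 0.32 in A375 and had -0.08 in SK-MEL-28, and CUL1 and RNF123 were called in neither. The other called ligase genes, named after their values were seen, were CKS1B, a cofactor of SKP2, which rose in both lines by 0.43 and 0.40, and in A375 FBXO31 (0.25) and UBAC1 (0.19), which rose, and CUL3, which fell by 0.18. The calls of FBXO31, UBAC1 and CUL3 were lost under 3, 8 and 5 of 14 alternatives, rapamycin replicates 1 and 3 left out among them for each (adjusted p up to 0.0889). Of 6 transcription factors upstream of these genes, 1 rose and 1 fell in A375 and 0 rose and 3 fell in SK-MEL-28. JUN, an AP-1 factor that activates CCND1, rose by 0.53 ± 0.049 in A375 (adjusted p = 1.08e-05) and fell by 0.23 ± 0.062 in SK-MEL-28 (adjusted p = 0.0226), opposite in direction to CCND1 in each line. The SK-MEL-28 call of JUN was lost without rapamycin replicate 1 or 3 or etoposide replicate 2 or 3 and with the filter of 1 count (adjusted p 0.0652 to 0.0955). FOXO1, which activates CDKN1B, had -0.03 in A375 and fell by 0.34 in SK-MEL-28, a call lost without rapamycin replicate 2 or etoposide replicate 2 or 3 (adjusted p up to 0.0946), and FOXO3 was called in neither line. MITF, the melanocyte lineage factor, also named after its values were seen, fell in both lines, by 0.51 and 0.50.

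**Figure D5:**
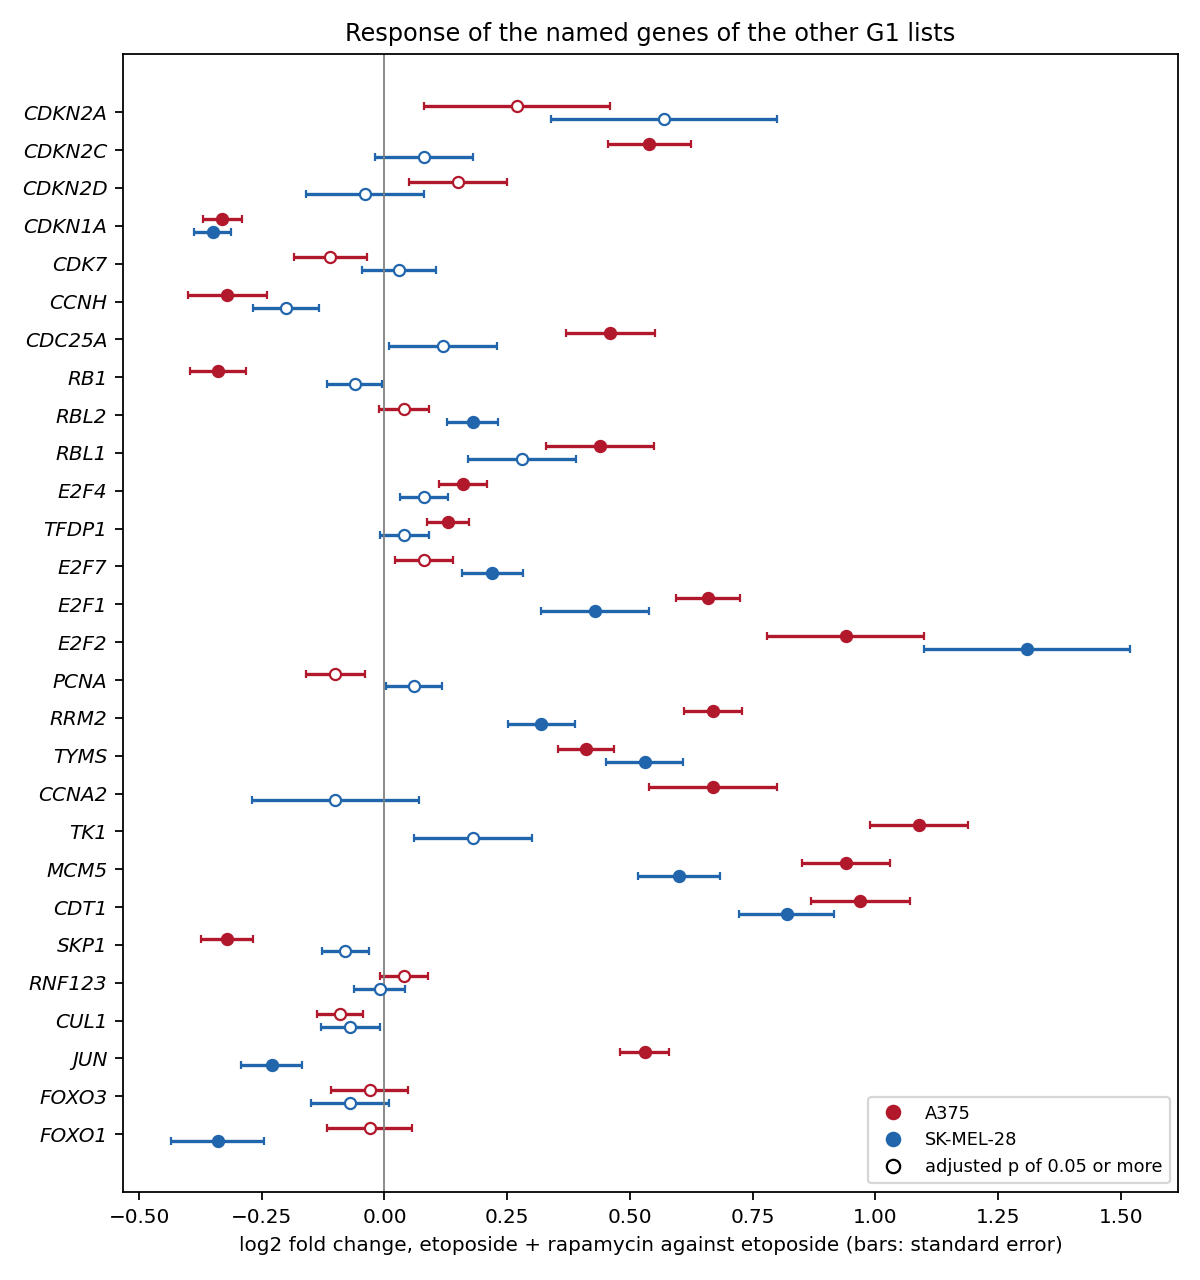
Log2 fold change of etoposide + rapamycin against etoposide (horizontal axis) for 28 named and tested genes of the other G1 lists, red for A375 and blue for SK-MEL-28, with standard errors and filled points for an adjusted p below 0.05. E2F1, E2F2, RRM2, TYMS, MCM5 and CDT1 lay to the right in both lines, CDKN1A to the left in both, and JUN on opposite sides. Some of the genes were named because they were called with over 1.5-fold change.

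For the 3 genes called in both lines, the most similar profiles were sought among 12701 other genes with a mean count of at least 100, as the root mean square difference of log2 CPM over the 12 libraries after each line was centred. WBP2 (0.039) and NUP50 (0.0405) were nearest to CCND1, both a little lower with rapamycin in A375 (log2 fold change -0.08 and -0.12) and higher in SK-MEL-28 (0.20 each). BOD1 (0.0531) and THG1L (0.0571) were nearest to CDK2, and FZD8 (0.0971) and H1FX (0.102) were nearest to CDKN1C, both higher in each line (0.69 and 0.68 for A375, 0.75 and 0.77 for SK-MEL-28). These are descriptions of likeness over 12 libraries and carry no test.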

How the data were processed

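RNA was prepared by the authors from A375 and SK-MEL-28 cells, enriched for polyA and sequenced on an Illumina instrument. Per the methods and the submitters' processing notes, reads were aligned to GRCh38 with HISAT2 and summed per gene with StringTie, and the deposited matrix held raw counts per gene for all libraries, in 58312 rows of which 5 named no gene and were left out (0.000991% to 0.00529% of the counts of a library). Rows could carry the identifier of a locus merged by StringTie beside the gene symbol. Whether such a locus took in reads of a neighbouring gene was not tested. Use of strand is not given in the sources used here. The study called genes with DESeq2.

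Here the deposited counts were tested with edgeR 4.0.16 in R 4.3.3 (limma 3.58.1), with the low-count filter of filterByExpr at 10 counts, TMM scaling, glmQLFit and glmQLFTest, and Benjamini-Hochberg adjustment over all genes tested. The calls required an adjusted p under 0.05, and the study's 1.5-fold threshold was counted beside them. Each treatment comparison used the 6 libraries of its line, the lines were compared over the 6 etoposide libraries, and the difference in response was an interaction over 12 libraries. The script was tested on simulated data. Intervals use the t distribution of the fit. Log2 CPM for profile likeness used a prior count of 2. Gene lengths and positions came from GENCODE release 44, and not from the annotation that the study used for its counts.

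The groups came from the titles. The study states 3 biological replicates, and no 2 libraries agreed within sampling noise. The titles do not state whether replicate numbers pair the libraries, and the main tests treated the libraries as unpaired. The genes and lists were chosen with earlier results of these data known. Named were the 10 genes, all INK4 inhibitors and CDKN1A, and of the other lists the 3 genes with the highest mean count and any called with over 1.5-fold change in either line, plus the 2 nearest profiles for each gene called in both lines. CKS1B, FBXO31, UBAC1, CUL3, TFDP2, E2F6, MITF and the called markers were named after their values were seen. Alternatives were DESeq2 1.42.0, other scalings and filters, summed symbols, a replicate block, 1 fit of all libraries, the fold threshold and leaving out each library.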

Additional observations from a re-analysis of the deposited data

Results flagged for a closer look

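Responses of A375 and SK-MEL-28 to rapamycin were compared in the edgeR interaction test over 12 libraries (3 per group) with Benjamini-Hochberg adjustment. They were unequal for 1 of the 9 genes tested and 5 of the 49 tested genes of the other G1 lists. Of all 20101 genes tested, 5.62% were called. The differences are SK-MEL-28 minus A375 on the log2 scale. CCND1 differed by 0.41 (adjusted p = 0.000137), falling in all 3 rapamycin libraries of A375 and rising in all 3 of SK-MEL-28 relative to every etoposide library of the same line. JUN differed by -0.75 (adjusted p = 6.35e-05), rising in A375 and falling in SK-MEL-28, and TK1 by -0.90 (adjusted p = 0.00448). CDKN2C differed by -0.46 (adjusted p = 0.0412), SKP1 by 0.25 (adjusted p = 0.0388) and FBXO31, a substrate receptor of an SCF ligase, by -0.35 (adjusted p = 0.0346). The CDKN2C, SKP1 and FBXO31 differences were lost under 12, 11 and 11 of 19 alternatives, whereas those of CCND1, JUN and TK1 were called under all 19. The fall of CCND1 in A375 and the fall of JUN in SK-MEL-28 were each lost under 5 of 14.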

How the results depend on the processing

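Libraries that share a replicate number showed little correlation of their deviations from the group means across genes (A375 -0.034, -0.002 and 0, SK-MEL-28 -0.01, -0.002 and -0.065). Whether they were paired by design is not given in the titles. With the replicate block, 3 of the genes were called in A375 (5 without it), with CCND1 (adjusted p = 0.076) and CDK6 (adjusted p = 0.0535) lost, CCNE2 was lost in SK-MEL-28 (adjusted p = 0.065), and 2 in place of 5 other list genes differed in response. When genes needed only 1 count in 1 library to be tested, 3 genes were called in A375, with CDK2 (adjusted p = 0.0509) and CDK6 (adjusted p = 0.0622) lost, and 2 other list genes differed in response. With a fold change over 1.5 required, 0 genes were called in A375, 1 in SK-MEL-28, 0 for the difference and 2 between the lines, and 7, 3, 2 and 5 other list genes. DESeq2 called 8 other list genes for the difference. Leaving out 1 library gave 2 to 5 genes in A375, 3 to 4 in SK-MEL-28, 1 to 2 for the difference and 3 to 4 between the lines, and 22 to 25, 10 to 13, 2 to 6 and 15 to 21 other list genes, beside 28, 14, 5 and 24 with all libraries.

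Over all genes, 1130 differed in response, 1792 with DESeq2, 658 with the 1-count filter and 620 with the replicate block, and the filter moved the A375 count from 5295 to 3856. Every called change of the 10 genes kept its direction under all alternatives. No scaling moved the median of all genes by more than 0.05. Reversals were confined to values never called. With library totals RBL2 (-0.0036) and RNF123 (-0.0032) in A375 and CDK7 (-0.0081) in SK-MEL-28 changed sign, as did the CDK4 difference (-0.002) with 10 counts in every library. Leaving out 1 library spanned 0 for FOXO3 (-0.1039 to 0.0439) and FOXO1 (-0.1067 to 0.0384) in A375, for CDKN2D (-0.1331 to 0.059), CDK7 (-0.0214 to 0.0945), CCNA2 (-0.2733 to 0.0256) and RNF123 (-0.0395 to 0.0233) in SK-MEL-28, for the differences of CCNE2 (-0.3002 to 0.11), CDK4 (-0.0341 to 0.0673), CDKN1A (-0.0482 to 0.0008), CUL1 (-0.0345 to 0.0669) and FOXO3 (-0.1139 to 0.0408), and between the lines for CCND3 (-0.0549 to 0.0622) and CCNE2 (-0.2758 to 0.1354). The causes were not tested. Counts were too few to test CCND2 and CDKN2B.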
